A study of Homo sapiens with 8 samples.

Results

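The genes described here are 10 genes of the Hippo pathway and its YAP output, namely YAP1, WWTR1, TEAD1, TEAD4, LATS2, AMOTL2, ANKRD1, CCN1, CCN2 and RASSF4. They were picked by name from 54174 symbols of a deposited expression table, with the difference between knockout and control libraries in these data already known, so their values in that comparison are given as a description and not as a test. All 10 had a value in each of the 8 libraries and are among the 9016 genes that entered the fit over all genes. The samples were cultures of 143B, an established human osteosarcoma cell line. Of these, 4 libraries labelled NELL1 knockout came from cells transfected with a NELL1KO plasmid and 4 control libraries from cells transfected with a vector plasmid, all taken 48 h after a transient transfection with TransIT-LT1. The labels call the 4 of each group biological replicates and name neither a selection step nor a clone, so the share of edited cells in a knockout culture is unknown. The series title places the question in how NELL1, a secreted protein of the extracellular matrix, acts on the matrisome of osteosarcoma.

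The Hippo pathway is a kinase cascade in which the MST kinases, with the scaffold SAV1, activate the LATS kinases with their MOB1 partners. Active LATS phosphorylates the co-activators YAP (gene YAP1) and TAZ (gene WWTR1), which are then held in the cytoplasm or degraded. When LATS is inactive, YAP and TAZ enter the nucleus and bind TEAD transcription factors at target genes such as CCN1, CCN2 and ANKRD1. LATS2 and AMOTL2, inhibitors of YAP, are also targets, which closes a feedback loop. In cells of the osteoblast lineage the pathway responds to cell shape, matrix stiffness and cell density. RASSF4 belongs to a family of adaptor proteins whose classical members carry a SARAH domain, the kind of domain through which the MST kinases bind their partners.

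The DNA upstream of the members shows where TEAD factors could be read. TEAD factors recognise the letters GGAATG, or CATTCC when read on the other strand. RefSeq promoter windows of GRCh38.p14, from 250 bases before to 50 bases after an annotated start, were found for 7 of the 10 members, YAP1, WWTR1, LATS2, AMOTL2, ANKRD1, CCN2 and RASSF4. Of 35116 windows of the same length, 14.0% held the motif on either strand at least once, 1.37% at least 2 times and 0.128% at least 3 times. The 250 bases upstream of CCN2, ANKRD1, AMOTL2 and RASSF4 are shown because the first 3 hold the motif and had higher values in the knockout libraries, and RASSF4 had the lowest difference of the 10. ANKRD1 was higher mainly in knockout libraries 1 and 2 and was not called in the fit over all genes. As the display was picked by these values, no link between the motif and the difference is read from it. They are written on the strand of the gene, from 5′ to 3′, with the motif in capitals.
CCN2 (chr6:131951373-131951622, minus strand): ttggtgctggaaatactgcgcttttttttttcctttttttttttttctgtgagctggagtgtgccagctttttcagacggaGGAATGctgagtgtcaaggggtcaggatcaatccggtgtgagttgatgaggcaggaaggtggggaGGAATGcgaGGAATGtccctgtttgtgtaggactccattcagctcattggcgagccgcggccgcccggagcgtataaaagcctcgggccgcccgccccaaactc
ANKRD1 (chr10:90921088-90921337, minus strand): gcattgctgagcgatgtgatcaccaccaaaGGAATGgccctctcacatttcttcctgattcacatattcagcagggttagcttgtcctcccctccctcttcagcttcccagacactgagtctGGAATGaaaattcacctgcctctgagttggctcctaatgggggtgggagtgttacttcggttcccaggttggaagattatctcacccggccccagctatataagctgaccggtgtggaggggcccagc
AMOTL2 (chr3:134374448-134374697, minus strand): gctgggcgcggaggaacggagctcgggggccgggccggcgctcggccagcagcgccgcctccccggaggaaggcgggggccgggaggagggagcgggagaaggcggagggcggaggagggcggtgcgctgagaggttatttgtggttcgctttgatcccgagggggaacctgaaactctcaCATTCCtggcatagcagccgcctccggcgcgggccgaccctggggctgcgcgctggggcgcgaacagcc
RASSF4 (chr10:44959552-44959801, plus strand): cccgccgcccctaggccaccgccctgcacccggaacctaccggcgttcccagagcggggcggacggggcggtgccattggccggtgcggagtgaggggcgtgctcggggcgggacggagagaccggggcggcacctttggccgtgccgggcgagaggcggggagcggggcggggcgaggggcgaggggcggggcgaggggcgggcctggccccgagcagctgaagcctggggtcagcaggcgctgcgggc
The CCN2 window held the motif 3 times, with its first letter 169, 104 and 95 bases before the start. The ANKRD1 window held it 2 times, 220 and 128 bases before the start. One of the 2 annotated AMOTL2 starts had it 69 bases upstream and the other had none. YAP1 had 1 match, 162 bases upstream, and LATS2 had 1 match at base 10 of the transcribed part. Neither sequence is shown. YAP1 was lower in the knockout libraries (-0.25), so a match did not always go with higher values. The letters were not in the windows of RASSF4 or of either WWTR1 start. None of the matches overlapped another, and no member window held a CArG box, the site of the serum response factor, which 1.29% of all windows held. A match of letters is a description of the sequence and not evidence of binding.

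Between 14911 and 15171 genes had a value per library. The deposited values are quantile normalized log2 values whose unit before the logarithm and sequencing depth are not known, so no counting error can be given and values are not compared between genes. NELL1 itself was between -6.97 and -4.53 in the control libraries and between -6.96 and -4.82 in 3 knockout libraries, with a blank in the other, and its mean differed by -0.013 (exact two-sided permutation test, p = 0.971, smallest possible p = 0.0286). Its transcript therefore did not check the labels. Knockout libraries 1 and 2 were close to each other (SD across genes of their difference 0.123), as were knockout libraries 3 and 4 (0.128), while members of different pairs differed with an SD of 0.456 to 0.50. Differences are therefore also given within replicates 1 and 2 and within replicates 3 and 4, sets that were defined from the data and not by the labels. The controls did not form the same pairs. Control library 4 was nearer to control libraries 1 and 2 (SD 0.153 and 0.134) than to control library 3 (0.192). Of 7 markers of mesenchyme and osteoblasts, 2 could be tested and both fell. The intermediate filament gene VIM was at 10.79 to 10.87 in the control and 10.19 to 10.66 in the knockout libraries, and fell by 0.43 (SE 0.12; limma adjusted p = 0.0425, and 0.0507 with the replicate block). The fibronectin gene FN1 was at 5.97 to 6.12 and 4.15 to 5.42, and fell by 1.26 (SE 0.29; limma adjusted p = 0.0261). Their part in the results below was not tested. RUNX2, the osteoblast lineage factor, was at 0.048 to 0.43 and COL1A1 and ALPL had means of -0.046 and -0.95, all under the filter, and COL1A2 was blank in 4 libraries and THY1 in 5. Among markers of other lineages PTPRC was blank throughout, CDH1 in 6 libraries and CDH5 in 2, PECAM1 had a mean of -4.01, and EPCAM was at 1.83 to 2.77 and did not pass the test.

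Among the inhibitors of YAP, AMOTL2, an angiomotin-family protein that binds YAP and holds it outside the nucleus, was higher in every knockout library. Control libraries 1 to 4 had log2 values of 3.37, 3.38, 3.27 and 3.40, and knockout libraries 1 to 4 had 3.73, 3.77, 3.81 and 3.81. The groups were separated by 0.33. The mean went from 3.36 ± 0.060 (SD, n = 4) to 3.78 ± 0.041 (SD, n = 4), a log2 difference of 0.43 ± 0.061 (SE), or 1.34-fold if the logarithm is to base 2. Within replicates 1 and 2 the difference was 0.37, and within replicates 3 and 4 it was 0.48. AMOTL2 thus had a small difference of nearly the same size in all 4 knockout libraries. In bulk RNA such as this, a change in the share of cells that express a gene and a change in its RNA per cell cannot be told apart.

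LATS2, the kinase that phosphorylates YAP and TAZ, did not follow AMOTL2. Its log2 value was 1.58, 1.46, 1.81 and 1.73 in the control libraries and 1.51, 1.56, 2.20 and 2.23 in the knockout libraries. Knockout libraries 1 and 2 lay inside the control range and knockout libraries 3 and 4 above it. The difference of 0.23 ± 0.18 (SE, n = 4 each) combined 0.012 in replicates 1 and 2 with 0.45 in replicates 3 and 4.

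The co-activators YAP1 and WWTR1 had opposite kinds of profile. YAP1 was 4.91, 4.74, 4.81 and 4.77 in the control libraries and 4.49, 4.57, 4.56 and 4.61 in the knockout libraries. All knockout values were below all control values, by at least 0.13. The difference was -0.25 ± 0.065 (SE, n = 4 each), with -0.29 in replicates 1 and 2 and -0.20 in replicates 3 and 4.

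WWTR1, which encodes TAZ, split the knockout libraries. Its log2 value was 5.42, 5.33, 5.60 and 5.45 in the control libraries, a narrow band. Below every control were knockout libraries 1 and 2, at 4.00 and 4.22. Above every control were knockout libraries 3 and 4, at 6.03 and 6.04. Replicates 1 and 2 thus differed by -1.26 (2.40-fold lower) and replicates 3 and 4 by 0.51 (1.42-fold higher). Their mean of -0.38 ± 0.47 (SE, n = 4 each) describes neither pair. The size of the gap between the sets of replicates, 1.77, was at percentile 99.6 of all tested genes. The gaps of ANKRD1 and CCN1 were at percentiles 99.9 and 99.7. Since the sets were defined from these libraries, the percentiles are a description and not a test.

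Of the DNA-binding partners, TEAD4 was the steadiest member. It was at 4.94 to 5.02 in the control libraries and 4.89 to 4.94 in the knockout libraries, and the difference was -0.068 ± 0.056 (SE, n = 4 each). TEAD1 was at 3.11, 3.04, 3.01 and 3.08 in the control libraries and 2.86, 2.98, 3.22 and 3.17 in the knockout libraries. As for WWTR1, knockout libraries 1 and 2 were below and knockout libraries 3 and 4 above all controls, but by far less, -0.15 and 0.15 for the sets of replicates.

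**Figure D1:**
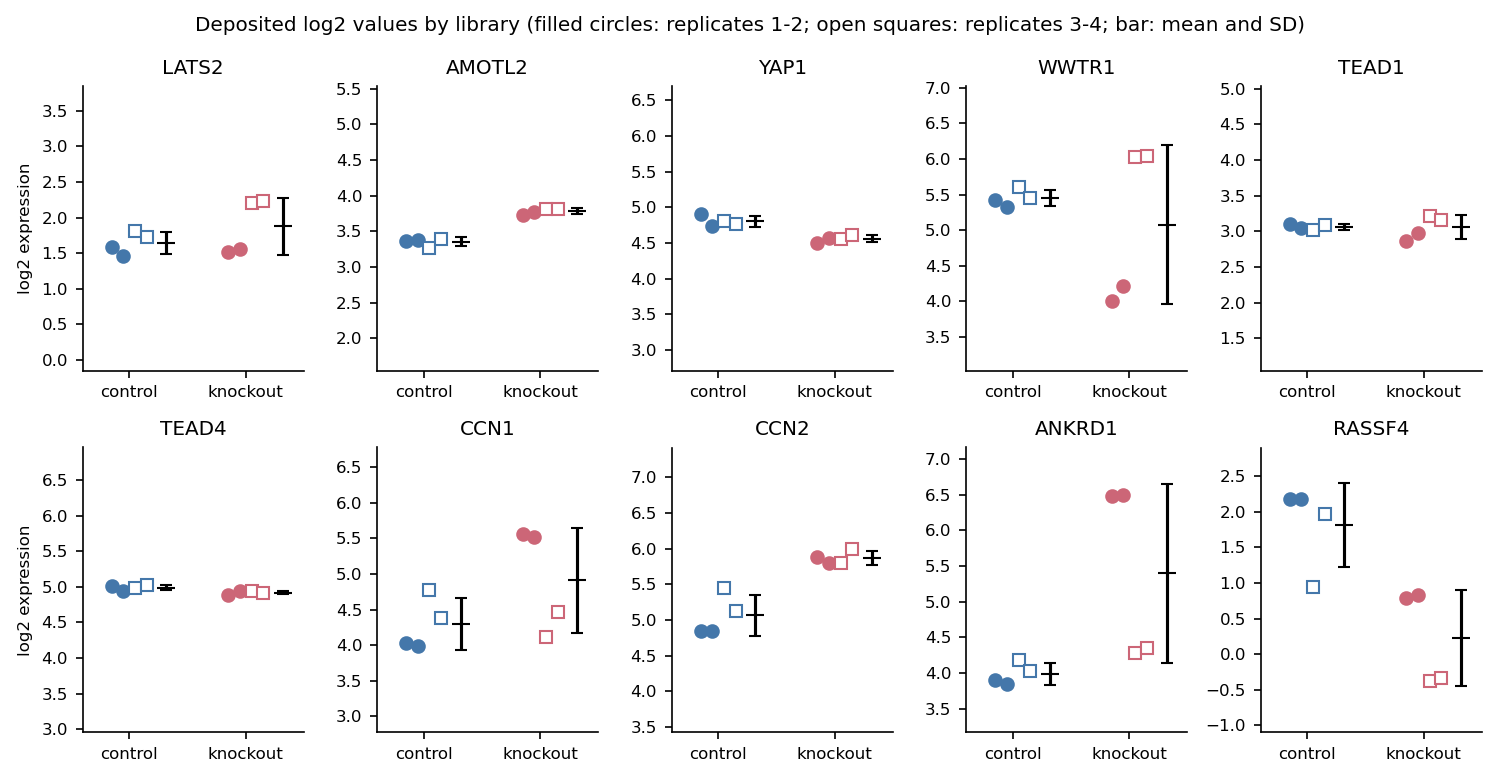
Deposited log2 value (vertical axis, spanning the same number of log2 units in every panel) of each of the 10 genes in the 4 control and the 4 NELL1 knockout libraries. Filled circles are replicates 1 and 2, open squares replicates 3 and 4, and bars the mean with SD (n = 4); AMOTL2 and CCN2 are higher in all knockout libraries, while WWTR1 lies at 4.00 and 4.22 in knockout libraries 1 and 2 and at 6.03 and 6.04 in knockout libraries 3 and 4.

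The target genes CCN1, CCN2 and ANKRD1, the usual readouts of YAP and TAZ activity, differed from one another. CCN2, a secreted matricellular protein also known as CTGF, was at 4.84, 4.85, 5.44 and 5.13 in the control libraries and at 5.88, 5.80, 5.80 and 5.998 in the knockout libraries. Every knockout value exceeded every control value, the nearest being 0.36 apart. The difference was 0.81 ± 0.14 (SE, n = 4 each), or 1.75-fold, with 1.00 in replicates 1 and 2 and 0.61 in replicates 3 and 4. The knockout libraries were nearly level with one another, at 5.87 ± 0.093 (SD, n = 4), and the unequal differences came from the controls, whose libraries 1 and 2 averaged 4.85 and libraries 3 and 4 averaged 5.29.

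CCN1, the related matricellular protein also known as CYR61, was higher in knockout libraries 1 and 2 alone. It was at 4.04, 3.99, 4.77 and 4.39 in the control libraries and at 5.56, 5.52, 4.11 and 4.46 in the knockout libraries. Knockout libraries 3 and 4 lay inside the control range. Replicates 1 and 2 differed by 1.53 (2.88-fold higher) and replicates 3 and 4 by -0.29.

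ANKRD1, a nuclear ankyrin-repeat cofactor, had the highest difference of the members. Its log2 value was 3.90, 3.84, 4.19 and 4.03 in the control libraries and 6.48, 6.49, 4.27 and 4.35 in the knockout libraries. Knockout libraries 1 and 2 were far above the controls, while knockout library 3 was 0.084 above the highest of them. Replicates 1 and 2 differed by 2.62 (6.13-fold higher) and replicates 3 and 4 by 0.20 (1.15-fold higher). Over all libraries it was 1.41 ± 0.53 (SE, n = 4 each). A difference of at least 1 in size in replicates 1 and 2 with one under 0.5 in replicates 3 and 4, the form seen in ANKRD1 and CCN1, was met by 84 of the 9016 tested genes (0.932%). The thresholds of 1 and 0.5 were set after these values were seen.

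RASSF4 was lower in the knockout libraries by the widest margin of the 10. It was at 2.18, 2.17, 0.95 and 1.97 in the control libraries and at 0.79, 0.83, -0.38 and -0.34 in the knockout libraries. The groups did not overlap, but control library 3 was only 0.11 above the highest knockout library. The difference was -1.59 ± 0.38 (SE, n = 4 each), or 3.01-fold lower, with -1.36 in replicates 1 and 2 and -1.82 in replicates 3 and 4. In the knockouts the level followed the sets of replicates, since replicates 3 and 4 averaged 1.17 below replicates 1 and 2. In the controls they averaged 0.72 below, which came mainly from control library 3. Control library 4, at 1.97, was near control libraries 1 and 2 and 1.02 from control library 3. With a mean over all libraries of 1.02 RASSF4 was just above the minimum mean of 1 that genes needed to be tested, and passed it through its control values.

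The controls alone, which the choice of members did not compare, already varied in some of these genes. The SD over the 4 control libraries was 0.59 for RASSF4, 0.36 for CCN1 and 0.28 for CCN2, at percentiles 99.7, 98.3 and 95.7 of all tested genes, whose median was 0.097. It was 0.038 for TEAD4 and 0.042 for TEAD1, at percentiles 8.86 and 11.3. Control library 3 had the highest value of CCN1, CCN2 and ANKRD1 and the lowest of RASSF4 among the controls.

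**Figure D2:**
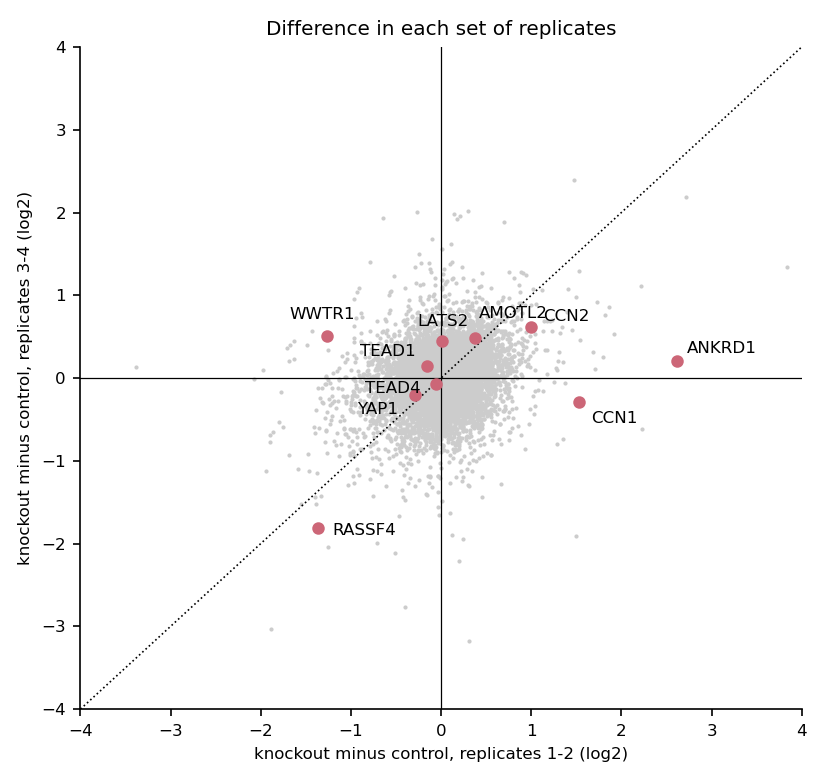
Knockout minus control difference on the log2 scale in replicates 1 and 2 (horizontal axis) against that in replicates 3 and 4 (vertical axis), for the 10 genes (labelled points) and other tested genes (grey). TEAD4, YAP1 and AMOTL2 lie nearest the dotted line of equal differences, RASSF4 and CCN2 have the same sign on both axes, ANKRD1 and CCN1 lie far to the right at 2.62 and 1.53 with vertical values of 0.20 and -0.29, and WWTR1 lies in the quadrant of opposite signs.

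In the limma fit over all genes, 4 of the 10 members had a Benjamini-Hochberg adjusted p under 0.05, against 13.1% of all tested genes. AMOTL2 and CCN2 were higher in the knockout libraries, beside 7.02% of all tested genes called higher, and YAP1 and RASSF4 were lower, beside 6.10% called lower. The groups did not overlap for 5 of 10, those 4 and ANKRD1, against 22.9% of all tested genes. The difference had opposite signs in replicates 1-2 and replicates 3-4 for 3 of 10, WWTR1, TEAD1 and CCN1, against 43.0% of all tested genes. Since the members were chosen with this contrast known, nothing is read from these shares. With the replicate number as a block YAP1 was no longer among the called members, which left 3, against 10.2% of all tested genes. With each close pair of knockout libraries averaged into 1 library limma called 0 members against 1.20% of all tested genes. An unadjusted p under 0.05 was then met by 5 members and by 1854 of all 9016 tested genes. The call of YAP1 was lost whichever library was left out, with differences of -0.27 to -0.21, and also when genes of any mean were tested. That of RASSF4 was lost without control library 1, 2 or 4 or knockout library 3 or 4, with differences of -1.88 to -1.39 over all libraries left out in turn. AMOTL2 (0.40 to 0.44) and CCN2 (0.73 to 0.93) were called in each of those fits.

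The profiles closest to 4 of the members were sought over all 8 libraries by the root-mean-square difference after each gene was centred on its control mean. The root-mean-square of the centred values themselves was 1.25 for RASSF4, 0.60 for CCN2, 0.67 for CCN1 and 1.26 for ANKRD1. Because the knockout libraries entered the search, the likeness of these genes to the member follows from how they were picked. For RASSF4 these genes were DEPP1 (0.24), SCARF1 (0.28) and DDIT4 (0.35). Relative to the mean of the 4 controls, DEPP1 stood at -1.08 in knockout libraries 1 and 2 and at -1.84 in knockout libraries 3 and 4, and SCARF1 at -1.07 and -1.69. DDIT4 was unlike RASSF4 in the first of these pairs, at -0.36, and stood at -2.34 in the other. For CCN2 they were CENPM, ATAD3A and SKP2 (0.083, 0.083 and 0.095). Each stood at 0.69 to 0.88 relative to its control mean in both pairs of knockout libraries. For CCN1 they were HYI, G0S2 and MAGOHB (0.228, 0.232 and 0.235), and for ANKRD1 they were RCAN1, HMOX1 and SH2D5 (0.43, 0.45 and 0.49). HYI and G0S2 stood at 1.02 and 1.05 relative to their control means in knockout libraries 1 and 2 and at 0.20 and 0.35 in knockout libraries 3 and 4. MAGOHB stood at 0.87 and -0.073 in these pairs, RCAN1 at 1.66 and 0.38, HMOX1 at 2.01 and -0.39 and SH2D5 at 1.53 and 0.47. The differences given above for a member within a set of replicates used only the controls of that set, so they are not on this scale. RASSF4 averaged 0.81 in knockout libraries 1 and 2 and -0.36 in knockout libraries 3 and 4, beside 1.82 over the 4 controls. These means were 5.54, 4.29 and 4.30 for CCN1, 6.485, 4.31 and 3.99 for ANKRD1, and 5.84, 5.90 and 5.07 for CCN2.

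**Figure D3:**
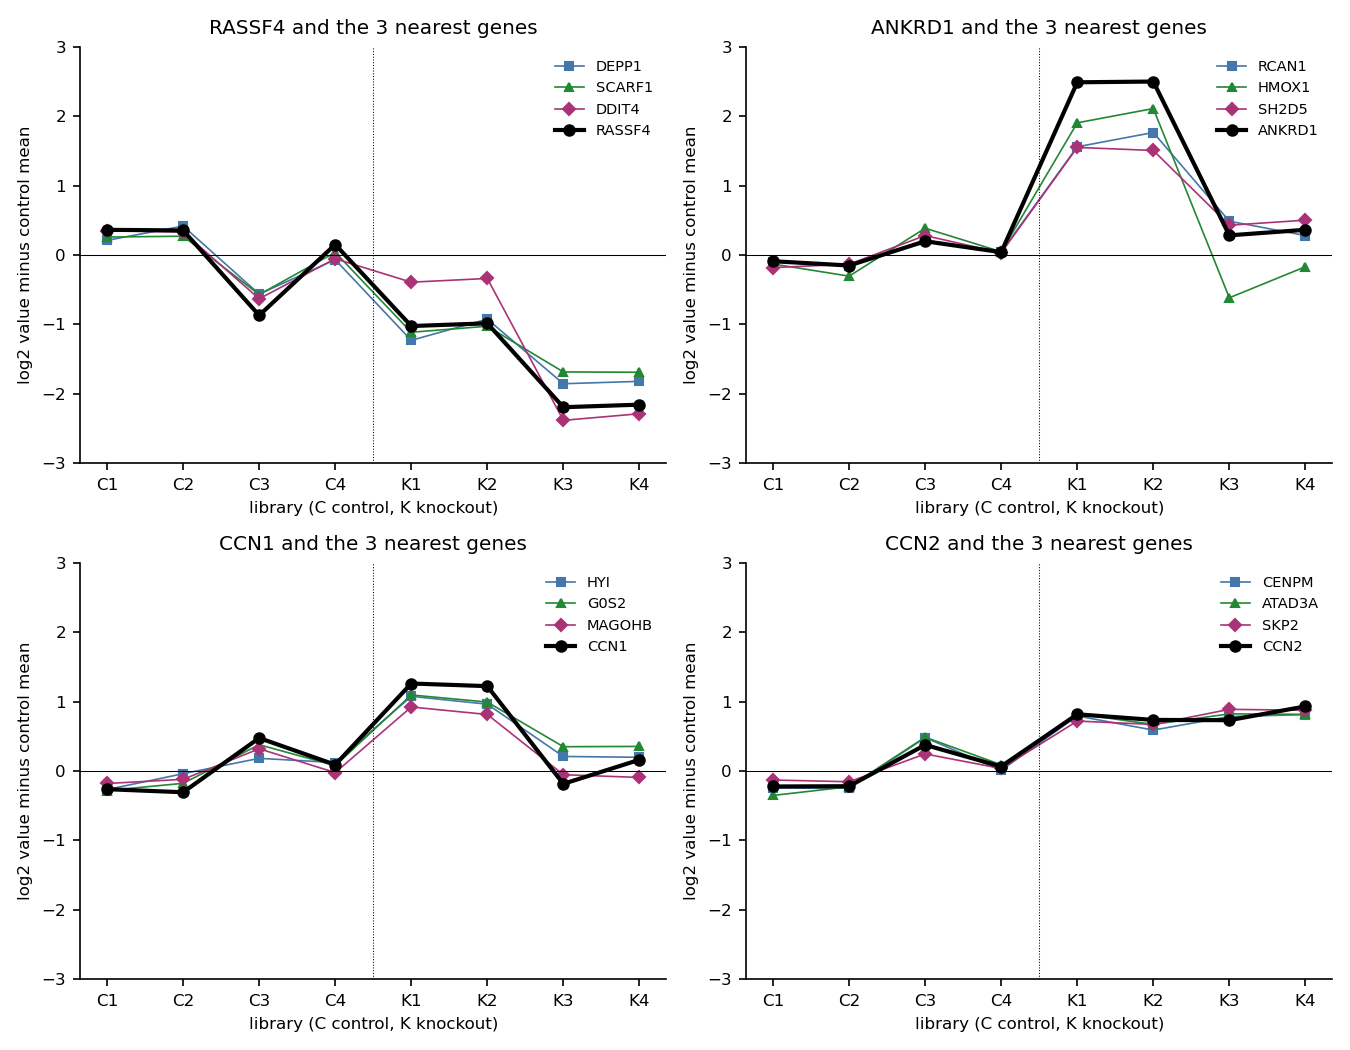
Log2 value minus the control mean of the same gene (vertical axis) in control (C) and knockout (K) libraries 1 to 4, for RASSF4, ANKRD1, CCN1 and CCN2 (black) and the 3 genes with the nearest profile to each; lines only join the points of a gene. The neighbours were picked for their closeness over these same libraries. CCN2 and its neighbours stand at a like height in all 4 knockout libraries, whereas ANKRD1 stands at 6.48 and 6.49 before centring in knockout libraries 1 and 2 and at 4.27 and 4.35 in knockout libraries 3 and 4.

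The rest of the pathway was read from lists of 85 other genes, of which 61 could be tested. The fit called 5 of these 61 (8.20%), 3 higher and 2 lower, against 13.1% of all tested genes. Their median difference was 0.048, beside 0.0072 for all tested genes, and the median size of the difference was 0.17 against 0.16. With the replicate block 8 of the 61 were called (13.1%), those 5 among them, against 10.2% of all tested genes. The share of the pathway genes called was thus below that of all tested genes without the block and above it with the block. With knockout pairs averaged limma called 0 of them, against 1.20% of all tested genes. An unadjusted p under 0.05 was then met by 9 of the 61 and by 1854 of all 9016 tested genes.

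Of the kinase cassette and its upstream regulators, 1 of 20 tested genes rose, none fell and 19 did not pass the test, with a median difference of -0.060. The share called was 5.0%, against 13.1% of all tested genes. WWC1, which encodes KIBRA, an upstream activator of LATS, was at 1.40, 1.70, 1.95 and 1.80 in the control libraries and at 2.52, 2.55, 2.36 and 2.40 in the knockout libraries. All knockout values were above all controls. It rose by 0.74 ± 0.12 (SE; limma adjusted p = 0.00705). The kinases STK4 (-0.16) and LATS1 (-0.076) and the scaffold SAV1 (0.086) did not pass the test. NF2, which encodes the upstream regulator merlin, differed by 0.70 ± 0.29 (SE). Its limma adjusted p was 0.151, 0.0341 with the replicate block and 0.269 with knockout pairs averaged. NF2 was singled out after its values were seen.

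In the STRIPAK complex, the phosphatase assembly that dephosphorylates the MST kinases, limma called 0 of 12 tested genes (median difference -0.072), against 13.1% of all tested genes. An unadjusted p under 0.05 was met by 3 of these and by 2675 of all 9016 tested genes. STK24, a kinase of the complex singled out after its values were seen, was at 3.02 ± 0.081 in the control libraries and 2.51 ± 0.39 in the knockout libraries (SD, n = 4 each). Its groups did not overlap, and the difference was -0.86 for replicates 1 and 2 but -0.15 for replicates 3 and 4. Over all libraries the difference did not pass the test (-0.50 ± 0.17 SE; limma adjusted p = 0.0927).

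Among partners and inhibitors of YAP and TAZ, 1 of 10 tested genes rose and 9 did not pass the test (median difference 0.14). AJUBA, a LIM protein that inhibits LATS, was at 2.81, 2.86, 2.89 and 2.88 in the control libraries and at 3.72, 3.79, 3.37 and 3.34 in the knockout libraries. It rose by 0.69 ± 0.11 (SE; limma adjusted p = 0.00789), by 0.92 in replicates 1 and 2 and by 0.47 in replicates 3 and 4. TEAD2 (0.25) and TEAD3 (-0.051), the other TEAD factors, did not pass the test.

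In the list of YAP and TAZ targets other than the members, 2 of 14 tested genes passed the test (14.3%) and both fell, against 13.1% of all tested genes called. The median difference of the list was 0.13, and 9 of the 14 differences were above 0, beside 4624 of all 9016. Nothing particular to the targets is read from these counts. NT5E, which encodes the ecto-nucleotidase CD73, was at 4.77, 4.81, 5.18 and 5.03 in the control libraries and at 4.35, 4.37, 3.81 and 3.70 in the knockout libraries, without overlap. It fell by 0.89 (SE 0.18; limma adjusted p = 0.0154), a call that was lost without control library 4 (limma adjusted p = 0.0587). IGFBP3, a secreted binding protein of insulin-like growth factors, was at 6.03, 6.07, 4.98 and 5.75 in the control libraries and at 5.01, 5.06, 4.52 and 4.56 in the knockout libraries. Control library 3 lay within the knockout range, and IGFBP3 fell by 0.92 (SE 0.25; limma adjusted p = 0.0441). When 1 library was left out in turn, that call remained only without control library 3 (limma adjusted p from 0.00722 to 0.126), and it was lost when genes of any mean were tested (0.0694). MYOF and FJX1, singled out after their values were seen, differed by 0.36 and 0.49, with a limma adjusted p of 0.0889 and 0.0749. The limma adjusted p was 0.0443 and 0.0360 with the replicate block, and 0.212 and 0.175 with knockout pairs averaged. GADD45A, a stress-response gene, differed by 0.80 in replicates 1 and 2 and by -0.030 in replicates 3 and 4, and did not pass the test over all libraries.

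In the RASSF family 1 of 5 other tested genes rose (20.0%, against 13.1% of all tested genes called) and 4 did not pass the test. RASSF7, a member with its Ras association domain at the other end of the protein, was at 2.28, 2.35, 2.31 and 2.44 in the control libraries and at 2.74, 2.72, 2.97 and 3.05 in the knockout libraries. It rose by 0.53 ± 0.091 (SE; limma adjusted p = 0.00985), opposite in sign to RASSF4. RASSF1 (0.28), RASSF2 (0.12), RASSF3 (-0.13) and RASSF8 (-0.26) did not pass the test. Of the other CCN genes, CCN3 had a mean of 0.13, under the filter, CCN4 and CCN5 had values in 5 libraries each and CCN6 in none.

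**Figure D4:**
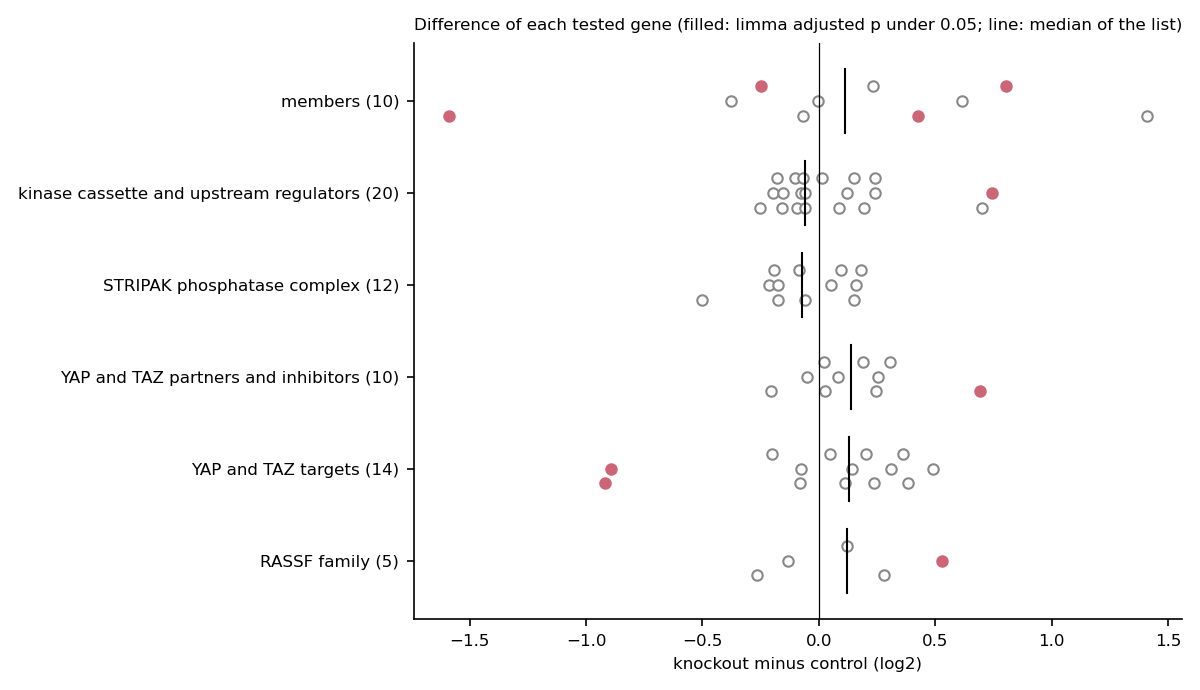
Knockout minus control difference on the log2 scale (horizontal axis) of each tested gene, for the 10 members and each pathway list, with the number of tested genes in brackets, filled points for a limma adjusted p under 0.05 and a vertical line for the median of each list. Each list median lies between -0.072 and 0.14, and the called genes WWC1, AJUBA and RASSF7 lie to the right and IGFBP3 and NT5E to the left.

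The split seen in WWTR1 also occurred among other genes of the pathway. A difference below 0 in replicates 1 and 2 and above 0 in replicates 3 and 4 was found for 17 of the 61 tested list genes, and for 19.3% of all tested genes. That direction was taken from WWTR1 after its values were seen. Opposite signs in either direction were found for 26 of the 61, and for 43.0% of all tested genes, so nothing particular to the pathway is read from the split. The 17 were 7 of 20 kinases and regulators, 4 of 10 partners and inhibitors, 3 of 14 targets, 2 of 12 STRIPAK genes and 1 of 5 RASSF genes, beside 2 of the 10 members. TNIK, a kinase of the MAP4K type, had differences of -0.88 and 0.74, and MAP4K4 had -0.52 and 0.31. AMOTL1, a relative of AMOTL2, had -0.72 and 0.30, and the junction protein gene TJP1 had -0.28 and 0.45. These genes were singled out after their values were seen, and a difference between the sets of replicates was not tested.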

How the data were processed

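RNA from 8 cultures was extracted with TRIzol and made into stranded total-RNA libraries, per the labels' protocols. The submitters' processing notes name bcl2fastq, Partek 7.0 and GRCh38; the aligner, the annotation and the counting unit are not given in the sources used here. The authors deposited 1 log2 value per symbol and library; base 2 was inferred from the range. The deposited log2 values had the same mean (1.07) and median (1.77) in every library, as quantile normalization makes them, which hides any change common to most genes. Blank cells were treated as missing. Depth is unknown, and precision rests on the spread between libraries.

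Groups came from sample titles and columns from sample descriptions. The model of knockout minus control used limma 3.58.1 (R 4.3.3). It covered 9016 genes, those without a blank cell whose mean was 1 or more, with Benjamini-Hochberg adjustment over all of them, and a gene was called at an adjusted p under 0.05. The fit was tested on simulated data in which all libraries were independent. It therefore does not show how the fit behaves when knockout libraries form close pairs, as they do here. The members and pathway lists were chosen with earlier results of these data known; the lists were written from general knowledge, and 3 of their genes are not reported here and enter no list count, nearest profile or figure. Named in the text are all members, the called genes of each list and the 3 nearest profiles of 4 members; others are marked where they occur or are given as list members that did not pass the test. Same-numbered control and knockout libraries deviated together from their group means (correlation across genes 0.195 to 0.289 in the 4 pairs), so the replicate number was also fitted as a block. Unlike-numbered control and knockout libraries within replicates 1-2 or within 3-4 also deviated together (0.113 to 0.315). The correlations therefore do not show a pairing by replicate number. Other alternatives were the filter on low values, scaling, a pseudocount of 1, a variance trend, knockout pairs averaged, a term for or a fit within replicates 1-2 and 3-4, and leaving out each library.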

Additional observations from a re-analysis of the deposited data

How the results depend on the processing

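Over all 9016 tested genes 1183 were called. A mean of at least 3 left 729, knockout pairs averaged gave 108, a term for replicates 1-2 against 3-4 gave 2274, replicates 1-2 only gave 5380 and replicates 3-4 only 2987, and leaving out 1 library gave 391 to 1353. Of the 10 members 4 were called, with 0 for knockout pairs averaged and 2 to 3 when 1 library was left out. The term for replicates 1-2 against 3-4 gave 5, replicates 1-2 only gave 7 and replicates 3-4 only gave 5. These stand beside 2274, 5380 and 2987 of all 9016 tested genes. Of the 61 pathway list genes 5 were called, with 3 at a mean of at least 3, 8 with the replicate block, 0 for knockout pairs averaged, 18 with the term for replicates 1-2 against 3-4, 42 in replicates 1-2 only, 26 in replicates 3-4 only and 3 to 10 when 1 library was left out. The cause of these shifts was not tested. With the replicate block, with the term and within either set the share of list genes called was above that of all tested genes. The sets were chosen because their knockout libraries were close, which makes the spread within them small. The p-values with the term and within either set are therefore not valid tests, and nothing is read from those shares. The differences of WWTR1 (0.51), TEAD1 (0.15) and CCN1 (-0.29) changed sign in replicates 3-4 only, and that of TEAD1 ranged from -0.059 to 0.061 when 1 library was left out. Median centring, further quantile normalization, the pseudocount and the variance trend kept the sign of all 10 members and the calls of the 5 named list genes. With no filter on the mean 1157 genes were called, 751 of them among the 1183, and the calls of YAP1 (adjusted p = 0.0655) and IGFBP3 (0.0694) were lost; 6 list genes were called, 4 of them among the 5. The replicate block gave 924 called genes, kept the calls of these 5 list genes and added NF2, MYOF and FJX1, lost YAP1 among the members, and changed no other call among the members. No depth is given, so limits from counting cannot be stated.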

Other observations

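The letters GGAATG, or CATTCC on the other strand, were also counted in the RefSeq promoter windows of the pathway lists. At least 1 window of the gene held them for 6 of 14 matched YAP and TAZ targets, 4 of 12 partners and inhibitors, 2 of 6 RASSF genes, 2 of 21 kinases and upstream regulators, 1 of 12 STRIPAK genes and the 1 matched CCN gene, which is 16 of 66 in all (24.2%), beside 16.7% of the 27305 genes with a window. The targets in that list were chosen as known YAP and TAZ targets, so the count is a description of the list.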
